A study of Mus musculus with 6 samples.

Results

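Expression of 10 genes that mark Bergmann glia and astrocytes, Fabp7, Slc1a3, Glul, Aqp4, Gja1, Gfap, S100b, Sox9, Hopx and Gdf10, was followed in the cerebellum of newborn C57BL/6J mice whose dams were fed 2 or 20 mg of folic acid (FA) per kg of diet. The genes were chosen as known markers and found by their symbol among the probes of the arrays, which gave 14 probes on 32 spots, of 55681 probes with 34797 different names in all. In the test across all probes, whose spread is drawn largely from all of them, no probe of the 10 genes passed for a dose difference. In males Gfap was 3.48-fold higher at 20 mg on its brightest probe and on both arrays. The male 2 mg array read lowest of all 6 arrays on that probe. Another Gfap probe, A_52_P52303, was 1.77-fold higher in males, with a log2 difference of only 0.24 on replicate 2. In females Glul was lower on both arrays at 20 mg, by 1.33 in the mean on the log2 scale. Aqp4 was the one gene whose brightest probe read higher on each of the 4 arrays at 20 mg than on the 2 mg array of its sex. The other Aqp4 probe read lower on female replicate 1 (-0.11) and on male replicate 2 (-1.14). Most of the other differences were smaller than the spread between the pools of the 20 mg group.

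Dams of 8 to 10 weeks received AIN-93G, a defined diet based on amino acids and made to order, from 1 week before mating through pregnancy, and only the FA content differed between the groups. The 2 mg diet served as the control, and no group received a diet without FA. Tissue was taken on postnatal day 1 (P1) and read on 6 Agilent arrays of 1 colour, on which each probe shines with the amount of dye-labelled copy of its transcript. Each array held RNA pooled from 3 pups of different dams. For each sex 1 array stands for the 2 mg group and 2 arrays, replicates 1 and 2, for the 20 mg group, where RNA was extracted again from a different batch of pups for the repeat. The sources used here do not say whether pools of different sex came from the same litters. The tissue is the cerebellum in the sample titles and in the methods, whereas a field of the labels gives whole brain.

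Bergmann glia are the radial astroglia of the cerebellar cortex. Their cell bodies lie beside the Purkinje cells, and their fibres guide newborn granule cells inward and wrap the synapses of Purkinje cells. They and other astrocytes clear glutamate from the synaptic cleft, turn it into glutamine, buffer water and potassium and are coupled to each other by gap junctions. In the first days after birth these cells are still forming from radial glia, and several genes of mature astrocytes are at a low level.

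Probes of Gfap, Hopx, Gja1 and Glul are shown first. For Gfap, Hopx and Aqp4 different probes of 1 gene gave different values, and the Aqp4 sequences are not given here. Each probe is 60 bases long. The first 30 bases are given, 5′ to 3′, with the position of the whole probe in mm9 as the array design states it. Of the 3 Gfap probes, A_55_P2157250 is assigned to transcript variant 2 of the gene (chr11:102748864-102748923, minus strand), and A_52_P52303 (chr11:102751813-102751872) and A_55_P2157245 (chr11:102752726-102752785) to transcript variant 1. The Hopx probes A_52_P512575 and A_55_P2011286 lie at chr5:77516460-77516519 and chr5:77516624-77516683 on the minus strand. Gja1 has 1 probe, at chr10:56109814-56109873 on the plus strand, printed on 10 spots. Glul has 1 probe and 1 spot, at chr1:155756765-155756824 on the plus strand.
Gfap A_55_P2157250: tttgaggaactgaaacgtgttgtgttcaag
Gfap A_52_P52303: ggttatattaacagagctagcctatgctaa
Gfap A_55_P2157245: caaaaggctcacaatacaagttgtcccaat
Hopx A_52_P512575: ctttggattttaatgaaagatgatgtggga
Hopx A_55_P2011286: agtgcagtgttgaatgtctcattgttttgc
Gja1 A_52_P174915: ctacacattaactcagaacttgtattctga
Glul A_55_P2142146: cgcttataaatcaacctaacatttataaga

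Levels are normalized log2 intensities, that is, the background-corrected brightness of a probe on the log2 scale after quantile normalization over the 6 arrays. A difference of 1 on this scale is a 2-fold change. The scanner software flags a spot as well above background, and a probe counts as such on an array where most of its spots carry the flag. The arrays were unequal in this respect. On 5 arrays between 51.1% and 71.9% of all probes were well above background, against 23.3% on the array labelled female 20 mg replicate 2, whose median processed signal was 5.17 against 41.8 to 178 on the others. That array stands apart from the rest, so values of replicate 1 alone are given beside the female results that change direction or call without it. Of the 14 probes, 13 were well above background on each of the other arrays apart from female 20 mg replicate 1, where all 14 were. On female 20 mg replicate 2 the number was 6. These 6 probes belong to Fabp7, Slc1a3, Glul, Aqp4 (both probes) and S100b.

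The slides were also not balanced. Slide 1 held both 2 mg arrays and female 20 mg replicate 1, slide 2 held female 20 mg replicate 2 and male 20 mg replicate 1, which were scanned on an earlier day than the others, and slide 3 held male 20 mg replicate 2. In males dose and slide therefore cannot be told apart. In females the comparison within slide 1 rests on 1 array per dose.

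**Figure D1:**
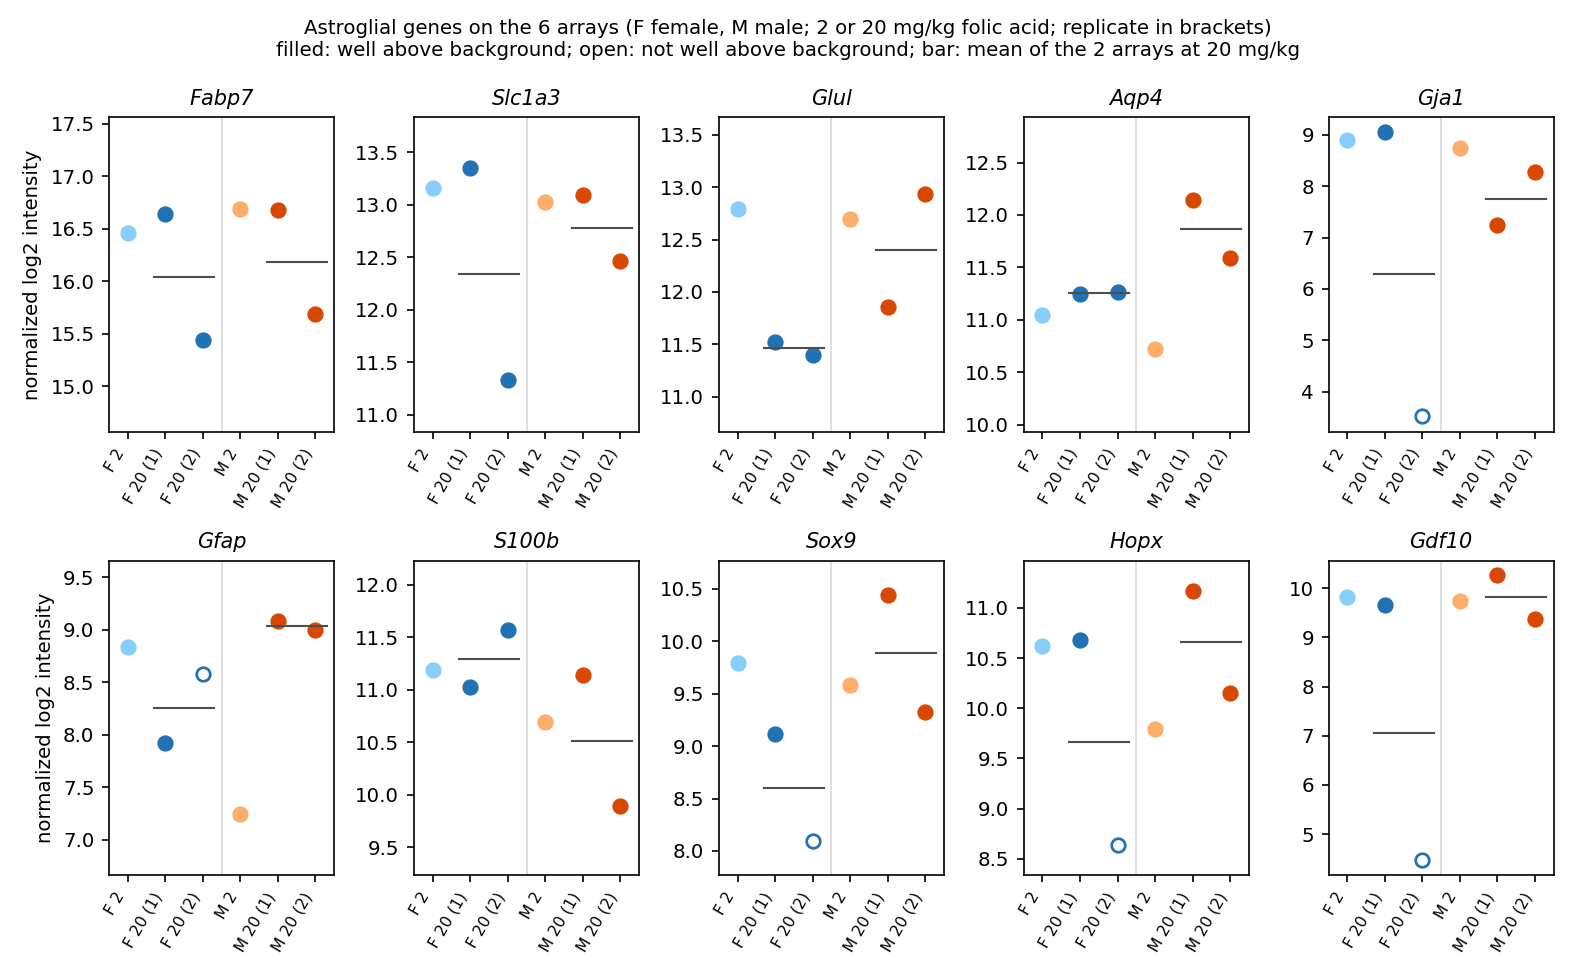
Normalized log2 intensity of the brightest probe of each gene (vertical axis, its own range in each panel) on the 6 arrays, with females in blue and males in orange, lighter at 2 mg and darker at 20 mg. Filled points are well above background, open points are not, and the bar is the mean of the 2 arrays at 20 mg. Fabp7 stays between 15.44 and 16.69, and the open points of Gja1, Gfap, Sox9, Hopx and Gdf10 all lie on female 20 mg replicate 2.

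Fabp7 encodes the brain fatty acid-binding protein, an early marker of radial glia and Bergmann glia. Its level in females was 16.46 at 2 mg, and 16.64 and 15.44 on replicates 1 and 2 at 20 mg. In males it was 16.69 at 2 mg, and 16.68 and 15.69 at 20 mg. In each sex replicate 1 lay within 0.2 of the 2 mg array and replicate 2 about 1 below it. The mean at 20 mg was lower by 0.41 in females (SD of the pools 0.84, n = 2) and by 0.50 in males (SD 0.70, n = 2), less than 1 SD in both. The limma fit gave males a 95% interval from -2.44 to 1.44. Of its relatives, Fabp5 differed by 0.40 in females and -0.41 in males, and Fabp3 by -0.04 and 0.24.

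Slc1a3 encodes GLAST, the main glutamate transporter of Bergmann glia. Females had 13.16 at 2 mg against 13.35 and 11.33 at 20 mg, and males 13.02 against 13.09 and 12.46. Again replicate 1 was close to the 2 mg array and replicate 2 below it in each sex, most of all on female replicate 2. The mean differences were -0.82 (SD 1.43, n = 2) in females and -0.25 (SD 0.44, n = 2) in males. Slc1a2, which encodes the partner transporter GLT-1, stood at 8.83, 8.18 and 7.85 in females and at 8.71, 8.26 and 9.22 in males in the same order of arrays, and its reading on female replicate 2 was not well above background. Its differences were -0.81 in females and 0.03 in males.

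Glul encodes glutamine synthetase, which turns the glutamate taken up into glutamine. In females the level was 12.79 at 2 mg, against 11.52 and 11.40 at 20 mg, and each of these readings was well above background. Both pools at 20 mg lay more than 1.2 below the 2 mg array, and they differed from each other by far less. The mean difference was -1.33 (SD 0.09, n = 2), a 2.51-fold lower level. In males the levels were 12.69 at 2 mg, and 11.86 and 12.93 at 20 mg, on either side of the 2 mg value (difference -0.29, SD 0.76, n = 2). The limma fit, which takes its spread from both sexes and from all probes, gave the female difference an SE of 1.00, a 95% interval from -3.42 to 0.76, an unadjusted p of 0.20 and a Benjamini-Hochberg adjusted p of 1.00. Within slide 1 female 20 mg replicate 1 was lower than both 2 mg arrays, by 1.27 against the female one.

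Aqp4 encodes the water channel of astrocyte endfeet and has 2 probes. On the brighter one, A_55_P2000369, females had 11.05 at 2 mg, and 11.24 and 11.26 at 20 mg. Males had 10.72 at 2 mg, and 12.14 and 11.59 at 20 mg. All 4 arrays at 20 mg read higher than the 2 mg array of their sex, by 0.20 in females (SD 0.01, n = 2) and by 1.15 in males (SD 0.39, n = 2). Over the probes tested, 5.12% were likewise higher on all 4 arrays. The limma 95% interval for males ran from -1.07 to 3.36 (adjusted p = 1.00). The other probe, A_55_P2031939, read 11.08, 10.97 and 11.74 in females and 10.96, 11.60 and 9.83 in males in the same order of arrays. It was the brighter of the 2 probes on both 2 mg arrays, so the choice of A_55_P2000369 rested on the 20 mg arrays. On this probe the male pools at 20 mg lay on opposite sides of the 2 mg array, and the male difference was -0.25 (SD 1.25, n = 2), so the probes of the gene disagreed in males on replicate 2.

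Gja1 encodes connexin 43, a gap junction protein of astrocytes. Females had 8.91 at 2 mg, 9.05 on replicate 1 and 3.52 on replicate 2, where none of the 10 spots was well above background. Males had 8.74 at 2 mg, and 7.24 and 8.27 at 20 mg, all well above background. In males both arrays at 20 mg were lower, by 1.49 and 0.46, for a mean of -0.98 (SD 0.73, n = 2), with a limma 95% interval from -5.63 to 3.68. In females the mean difference was -2.62 (SD 3.91, n = 2) with replicate 2, and 0.14 on the other array. The lowest reading well above background on female replicate 2 was 8.82, which is 1.06-fold below the 2 mg level of Gja1. This sets no firm bound, because Gbx2, at 9.18 on that array, was not well above background either. Gjb6, which encodes the partner connexin 30, differed by 0.12 in females and -0.27 in males.

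Gfap encodes the intermediate filament of astrocytes. On its brightest probe, A_55_P2157250, males had 7.24 at 2 mg, and 9.08 and 9.00 at 20 mg. Females had 8.84 at 2 mg, 7.92 on replicate 1 and 8.58 on replicate 2, the last not well above background. The male pools at 20 mg were nearly equal and lay 1.80 above the 2 mg array (SD 0.06, n = 2). The female pools at 20 mg lay 0.59 below theirs (SD 0.47, n = 2), so the sexes went opposite ways. The female minus male difference was -2.38 (SE 2.39, adjusted p = 1.00 in limma), and the interval of the male difference ran from -1.72 to 5.32 (adjusted p = 1.00).

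The other Gfap probes gave part of this pattern. A_52_P52303 read 7.05 at 2 mg in males, and 8.45 and 7.28 at 20 mg, for a difference of 0.82 (SD 0.83, n = 2). In females it read 9.05 and 8.56 on slide 1 and 3.73 on replicate 2, a reading not well above background. On both female arrays of slide 1 it was brighter than A_55_P2157250, which read 8.84 and 7.92. On the male 2 mg array they were close (7.05 and 7.24). The choice of A_55_P2157250 thus rested mostly on the other 20 mg arrays. The direction in each sex was the same as on the brightest probe, but the male replicates differed from each other by more than 1. The third probe, A_55_P2157245, was well above background on female 20 mg replicate 1 alone, at 4.76, and was left out of the limma fit.

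Gfap also differed most between the 2 mg arrays, which shared slide 1. The female array was higher than the male one by 1.60 on A_55_P2157250 and by 2.00 on A_52_P52303, or 3.02-fold and 4.0-fold. These were the only 2 of the 14 probes to differ by 2.5-fold between the 2 mg arrays, and in that comparison 0.763% of the probes tested were higher in the female by that much and 0.706% lower. The male dose difference was thus measured from a 2 mg array whose Gfap level on the brightest probe was the lowest of all 6 arrays, and the 20 mg male arrays were near the female 2 mg array. With 1 array per sex at 2 mg this difference has no replicate. Of 8 forebrain markers, 6 were higher in the female 2 mg array than in the male one, 5 of them at least 2.5-fold. The other 2 were lower, but not by that much. Of 6 choroid plexus markers, 5 were lower in the female array, 3 of them at least 2.5-fold, and 1 was higher. The part of tissue composition in the Gfap values was not tested.

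**Figure D2:**
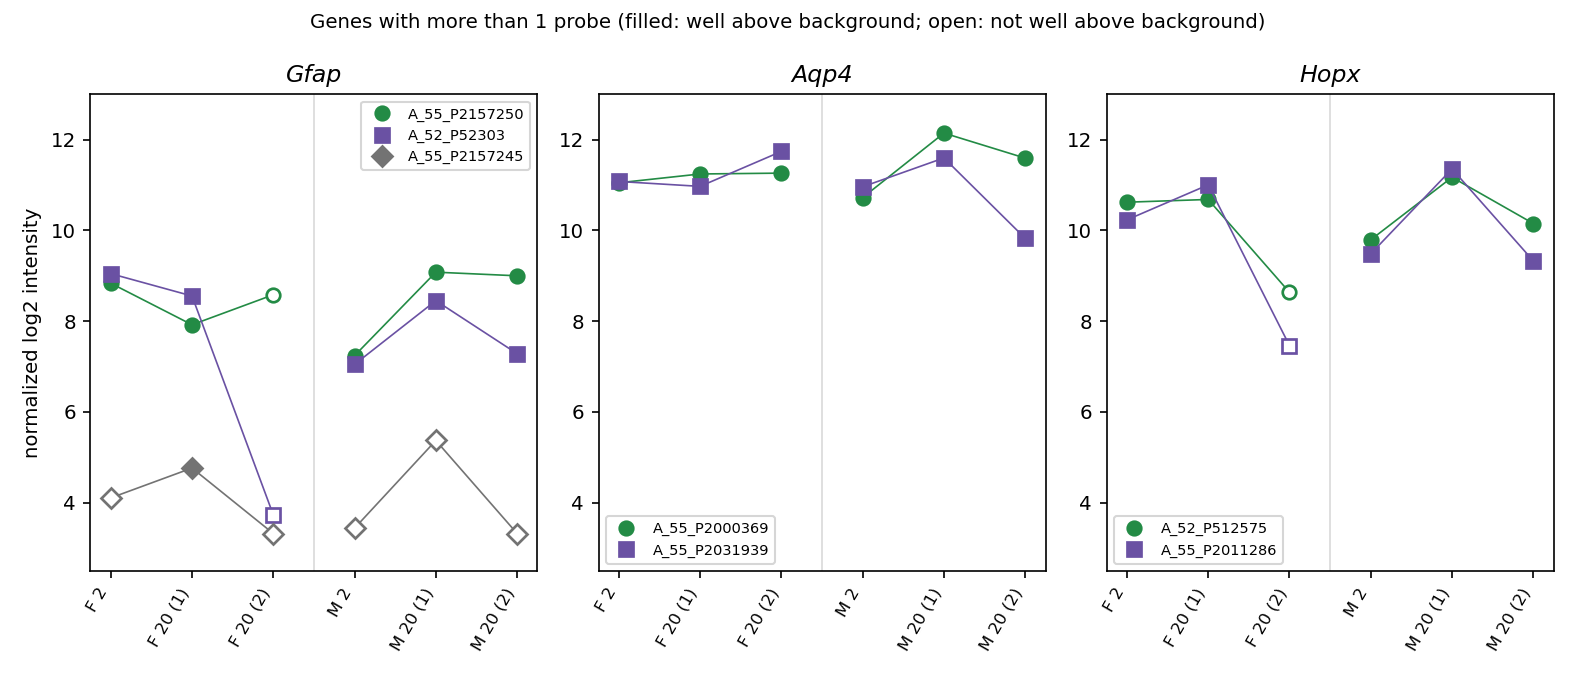
Normalized log2 intensity (vertical axis) of each probe of Gfap, Aqp4 and Hopx on the 6 arrays, lines joining the arrays of 1 sex, filled where the probe was well above background. The Gfap probes A_55_P2157250 and A_52_P52303 part most on both replicates 2, and the Aqp4 probes part on male 20 mg replicate 2 (11.59 and 9.83).

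S100b encodes a calcium-binding protein of astrocytes, among them Bergmann glia. Females had 11.19 at 2 mg against 11.02 and 11.57 at 20 mg, and males 10.69 against 11.14 and 9.90. The pools at 20 mg lay on both sides of the 2 mg array in each sex, with differences of 0.11 (SD 0.39, n = 2) and -0.18 (SD 0.88, n = 2).

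Sox9 encodes a transcription factor that switches neural progenitors towards a glial fate. Females had 9.79 at 2 mg, 9.11 on replicate 1 and 8.09 on replicate 2, where 1 of its 10 spots was well above background. Males had 9.58 at 2 mg, and 10.44 and 9.33 at 20 mg. Both female arrays were lower, with a difference of -1.19 in the mean (SD 0.72, n = 2) and -0.68 on replicate 1 alone, and the male arrays lay on either side (0.31, SD 0.79, n = 2). As Sox9 and Gja1 were each printed on 10 spots, the error between spots of 1 array could be set beside the spread between pools. In each sex the pools at 20 mg were on different slides and scan days, so the spread between them also holds differences between arrays. Between the spots of 1 array the SD of log2 signal, before normalization, was 0.05 to 0.17 for Sox9 and 0.05 to 0.25 for Gja1. These ranges cover the 5 arrays other than female 20 mg replicate 2. On that array, where the readings were near background, it was 0.87 for Sox9 and 0.16 for Gja1. Between the 2 male pools at 20 mg the SD of the normalized level was 0.79 for Sox9 and 0.73 for Gja1. These were above the spread between spots on any of those 5 arrays. For Sox9 the spot SD on female replicate 2 was above the SD of the female pools (0.72). Spot SDs were taken before normalization and pool SDs after it, so their sizes compare only roughly.

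Hopx encodes a homeodomain-only cofactor found in radial glia and Bergmann glia. On A_52_P512575 females had 10.62 at 2 mg, 10.68 on replicate 1 and 8.64 on replicate 2, the last not well above background. Males had 9.79 at 2 mg, and 11.17 and 10.15 at 20 mg. Both male arrays at 20 mg were higher, by 1.38 and 0.36, for a mean of 0.87 (SD 0.72, n = 2), while female replicate 1 matched its 2 mg array. The second probe read 10.23, 11.00 and 7.46 in females and 9.49, 11.35 and 9.33 in males in the same order of arrays, so on male replicate 2 it lay slightly below the 2 mg array and not above it. The female 2 mg levels of the 2 probes were 3.48-fold and 2.66-fold above the lowest reading well above background on female replicate 2. These folds are again no firm bound. The median difference of 8 forebrain markers was 1.31 on male replicate 1 and -1.40 on female replicate 2, in the direction of Hopx. Only 1 of the 8 markers, and neither Hopx probe, was well above background on female replicate 2. The forebrain median was 0.98 on female replicate 1, where Hopx differed by 0.06, and -0.16 on male replicate 2, where Hopx differed by 0.36. The oligodendrocyte lineage list had medians of 0.49, -0.93, -0.26 and -0.24 on these arrays in the same order. Whether either list and Hopx share a source was not tested.

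Gdf10 encodes a secreted factor of the bone morphogenetic protein family whose expression in the cerebellum is typical of Bergmann glia. Females had 9.82 at 2 mg, 9.67 on replicate 1 and 4.46 on replicate 2, a reading not well above background. Males had 9.73 at 2 mg, and 10.26 and 9.38 at 20 mg. The 5 arrays that measured it lay within 0.9 of each other. The female mean difference was -2.76 (SD 3.68, n = 2) with replicate 2 and -0.15 on replicate 1 alone. The female 2 mg level was 2.00-fold above the lowest reading well above background on replicate 2, which is no firm bound. The male difference was 0.09 (SD 0.63, n = 2).

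Across the genes, the fold rule of the study's methods was counted on all 14 probes. It asks for a 2.5-fold difference of the mean at 20 mg from the 2 mg array and for a variance over the 6 arrays above that of most probes. In males 0 of 14 probes were called in either direction, against 2.17% of all probes lower and 1.42% higher. Gfap passed the fold on A_55_P2157250 but not the variance. In females 3 of 14 probes were called lower, for Gdf10, Gja1 and Gfap (A_52_P52303), and 0 higher, against 10.3% and 8.65% of all probes. Counting only probes flagged as well above background on 2 or more arrays, the shares were 2.97% lower and 1.71% higher in males and 15.3% lower and 5.43% higher in females. Each of the 3 female calls rested on a reading of replicate 2 that was not well above background. Without that array, and among the 6 probes well above background on every female array, 0 were called. Glul passed the fold but not the variance.

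**Figure D3:**
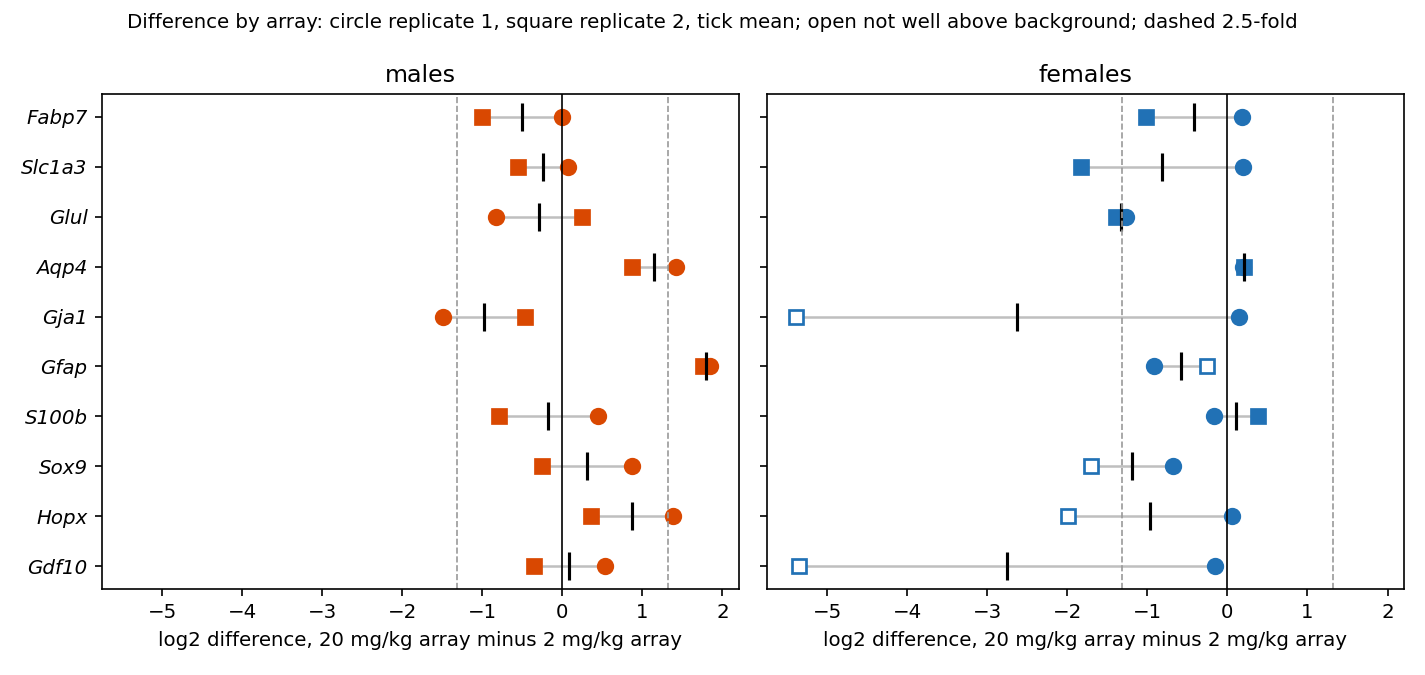
Log2 difference between each 20 mg array and the 2 mg array of its sex (horizontal axis) for the brightest probe of each gene, with replicate 1 as a circle, replicate 2 as a square and their mean as a tick. Open symbols were not well above background and dashed lines mark 2.5-fold. The pairs for Gfap in males (1.84 and 1.76) and Glul in females (-1.27 and -1.39) are tight, and the female squares of Gja1 and Gdf10 lie beyond -5.

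By array, the 2.5-fold differences were uneven. Male 20 mg replicate 1 had 6 probes higher by that much, of Aqp4, Gfap and Hopx, and 1 lower, of Gja1, where 6.29% of the probes tested were higher and 13.1% lower. Among the 6, Gfap A_55_P2157245 was not well above background on this array or on the male 2 mg array. It is counted among the 14 probes but is not among the probes tested. Male replicate 2 had 1 higher, of Gfap, and 0 lower, where 10% were higher and 8.25% lower. Female replicate 1 had 0 in either direction, where 3.07% were lower and 1.95% higher. Female replicate 2 had 8 lower and 0 higher, where 34.3% were lower and 18.5% higher. Of these 8, only the probes of Glul and Slc1a3 were well above background on that array. The SD of the pair at 20 mg was above the size of the dose difference for 10 of 14 probes in each sex. The arrays of the pair themselves differed by 2.5-fold for 3 probes in males and 7 in females, beside 38.2% and 54.1% of the probes tested.

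Both male arrays at 20 mg were higher than the 2 mg array for 4 probes, of Aqp4, Gfap and Hopx, where 20.4% of the probes tested were, and both were lower for 2, of Fabp7 and Gja1, where 23.5% were. Both female arrays were lower for 5 probes, of Gdf10, Gfap, Glul and Sox9, where 28.0% were. Of these 5, only the Glul probe was well above background on female replicate 2. Both female arrays were higher for 1 probe, of Aqp4, where 21.2% were. No probe was lower on all 4 arrays, which held for 6.68% of the probes tested. The median difference over the 10 genes was -0.04 in males, as over all probes tested (-0.04), and -0.89 in females, where that of all probes was -0.21. By array the median was 0.49 and -0.30 on male replicates 1 and 2, and -0.05 and -1.54 on the female ones. Over all probes tested it was 0.09, -0.16, 0.03 and -0.48 on these arrays in the same order.

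In the limma fit of all 37207 probes that could be tested, 0 probes, and so 0 of the 13 member probes in it, had an adjusted p under 0.05 in males, in females, over both sexes or for the difference between the sexes. At an unadjusted p under 0.05 the fit held 74 probes in males and 161 in females, and 0 member probes in either sex. The p-values rest on the spread between the pools at 20 mg in both sexes, drawn strongly towards that of all probes of similar level. The prior from all probes weighed 18.9 degrees of freedom, against 2 from the probe itself. Glul in females, with an SD of 0.09 between its pools, thus had an SE of 1.00. Each lone 2 mg array is assumed to vary as the pools do, for the member probes as for the rest. The smallest adjusted p of any of these probes under the alternatives was 0.18, for Gdf10 in females when replicate 1 was left out and the dim replicate 2 alone stood for 20 mg (difference -5.25).

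Among 45 other genes of astroglia, all had a probe, and 43 were well above background on the 5 brighter arrays. Their median difference was 0.07 in males, with 26 higher and 19 lower, and -0.07 in females, with 21 higher and 24 lower. On female replicate 1 alone it was -0.21, with 15 higher and 30 lower. The fold rule called 1 lower and 0 higher in males, the Notch target Hes1, which was not well above background on male 20 mg replicate 1. In females it called 3 lower and 0 higher, the transcription factors Nfia and Sox2 and the bicarbonate transporter Slc4a4, none of them well above background on female replicate 2. Of the probes tested, the rule called 2.97% lower and 1.71% higher in males, and 15.3% lower and 5.43% higher in females. By the limma fit 0 of the 45 were called in either sex or over both. On all 4 arrays at 20 mg 5 of the 45 were lower and 0 higher, where 6.68% and 5.12% of the probes tested were.

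Among the genes measured on every array, those with the highest mean difference over both sexes were Apoe, which carries lipid between brain cells, Clu, a secreted chaperone, and Mt3, a metal-binding protein. Apoe read 15.37 at 2 mg, and 14.91 and 16.39 at 20 mg in females, and 14.78, 16.75 and 15.83 in males. It was higher on both male arrays, for a mean of 1.51 (SD 0.65, n = 2), and on female replicate 2 only (0.28, SD 1.05, n = 2). Mt3 differed by 1.01 in males (SD 0.07, n = 2), and its female arrays at 20 mg lay on opposite sides of the 2 mg array (0.47, SD 1.96, n = 2). Clu differed by 0.75 and 0.77 in males and females, with SDs of 0.85 and 1.38, and by -0.21 on female replicate 1 alone.

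At the other end were Notch1, a receptor that maintains radial glia, Slc6a11, a GABA transporter, and Pla2g7, an enzyme that inactivates platelet-activating factor. Notch1 read 10.51 at 2 mg in males, and 9.47 and 8.19 at 20 mg. Both male arrays were lower, for a mean of -1.68 (SD 0.90, n = 2), and the female difference was -0.15 (SD 0.74, n = 2), with 0.37 on replicate 1 alone. Pla2g7 went the other way round, with -0.88 in females (SD 0.17, n = 2) and -0.07 in males (SD 0.06, n = 2). Slc6a11 differed by -0.63 in males (SD 1.53, n = 2) and -0.34 in females (SD 0.38, n = 2). For each of these 6 genes the limma adjusted p was 1.00 in both sexes.

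The tissue was checked against markers of its cells and of neighbouring tissue. Of 5 genes that mark the cerebellar field, En2 and Zic1 were well above background on all 6 arrays. En1 was not on both replicates 2, Gbx2 was not on female replicate 2, and Pax2 was not on male 20 mg replicate 1. The median difference of the oligodendrocyte lineage list was 0.26 in males and -0.59 in females, with -0.26 on female replicate 1 alone. The fold rule called 3 of its 11 genes lower in females, Olig1, Cnp and Mobp, beside 15.3% of the probes tested, and none of the 3 was well above background on female replicate 2. For the granule cell lineage the median was -0.06 in males and 0.31 in females, where the direction turned without replicate 2 (-0.45 on replicate 1 and 0.55 on replicate 2). For Purkinje cells it was -0.12 in males and 0.07 in females, with 0.31 and -0.26 on female replicates 1 and 2. The choroid plexus list had a difference of 0.36 in males and 2.67 in females, the largest of the lists in that sex, where it was 2.60 above the 2 mg array on replicate 1 also, the bright array of slide 1. Its summed level was 12.50 on the female 2 mg array, and 16.30 and 14.96 at 20 mg, against 14.72, 15.55 and 15.47 in males. The summed level of the 10 astroglial genes was 16.81, 16.92 and 15.78 in females and 16.95, 16.99 and 16.17 in males, lowest on both replicates 2. Levels were summed before taking the log2, so the brightest genes weigh most. In females Fabp7 alone read 16.46, 16.64 and 15.44, and Ttr of the choroid plexus list read 11.21, 16.16 and 14.59. The part of such other tissue in the astroglial values was not tested, and in a pool of whole tissue fewer cells of a type and less RNA per cell cannot be told apart.

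**Figure D4:**
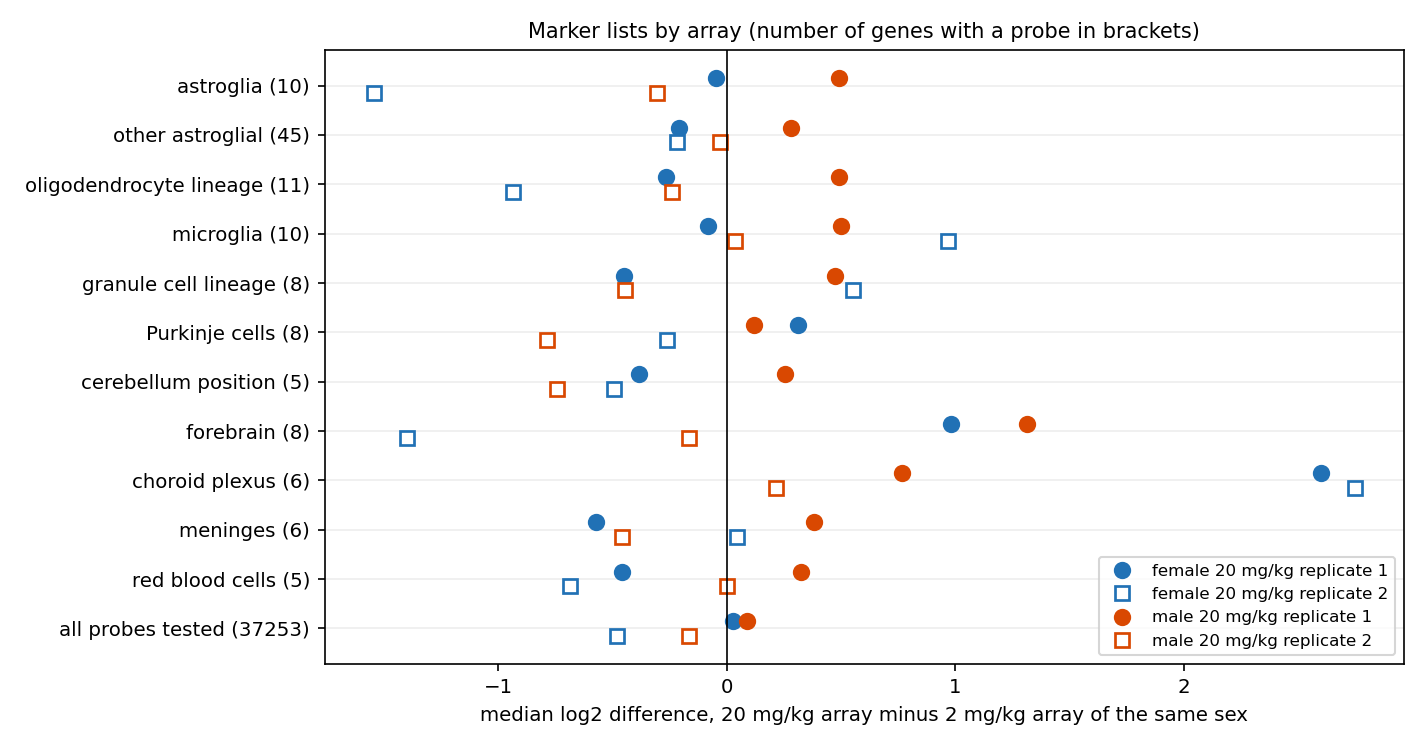
Median log2 difference of each marker list between a 20 mg array and the 2 mg array of its sex (horizontal axis), with replicate 1 filled and replicate 2 open, and the number of genes in brackets. The 10 astroglial genes range from -1.54 on female replicate 2 to 0.49 on male replicate 1. On the same arrays the forebrain list ranges from -1.40 to 1.31. The choroid plexus list lies above 2.5 on both female arrays. On female replicate 2, 5 of the 10 astroglial genes and 1 of the 8 forebrain genes were well above background.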

How the data were processed

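Arrays (6, P1 cerebellum) were assigned to groups from the sex and dose that their titles state. Columns of samples outside the study: 0 were used. The processed intensity of each spot came from the authors' run of Agilent Feature Extraction 10.7.3.1, which subtracts background and does not scale between arrays. The deposited files also hold mean and local background intensities and the software's other flags (well above background, outlier). The log2 values of the authors' deposited table were quantile normalized and floored in BRB-ArrayTools, per the methods, and served as an alternative. Here, outlier spots were left out, spots were averaged per probe, log2 values were quantile normalized across arrays, and a floor of 10 (linear) was then set, in Python 3.11.15 and limma 3.58.1 (R 4.3.3). The variation filter keeps probes whose variance over the arrays is above the median variance (chi-square p of 0.05 or less). limma was fitted with 4 groups and a trend on probes well above background on at least 2 arrays, with 2 residual degrees of freedom and Benjamini-Hochberg adjustment, and was tested on simulated data. The brightest probe, by mean over the arrays, stands for a gene. Of the other astroglial genes, up to 3 with the largest rise and fall over both sexes among those measured on all arrays were named, with partners and relatives of members. For readings not well above background on the dim array, the 2 mg level was set against the lowest level of any probe well above background there, or the probe's own where higher. Some probes above that lowest level were not well above background, so these folds are not bounds. Names and positions are those of the array design. The genes and lists were chosen with earlier results of these data known. Precision is limited by the number of arrays. Alternatives were other scalings and background corrections, no filter, scan day, slide 1 alone and each 20 mg array left out.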

Additional observations from a re-analysis of the deposited data

Results flagged for a closer look

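On its brightest probe Gfap went opposite ways in the sexes. Both male arrays at 20 mg were higher than the male 2 mg array, by 1.84 and 1.76, and both female arrays were lower, by 0.92 and 0.25, the latter on a reading that was not well above background. The difference between the sexes was -2.38 on the log2 scale (female minus male). In limma it had an SE of 2.39 and an adjusted p of 1.00, so it did not pass the test. At 2 mg, on the same slide, the female array was 1.60 above the male one on this probe.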

How the results depend on the processing

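The number of member probes past the fold rule was 0 in males. It was 1 in the authors' deposited table (Hopx), 1 without the variation filter (Gfap), and 0 to 3 when 1 array at 20 mg was left out, with 3 without male replicate 2 (Gja1 lower, Gfap and Hopx higher). The number in females was 3. It fell to 0 with a shift to a common 75th percentile, to 0 within slide 1, and to 0 with only the 6 probes well above background on all female arrays, a setting chosen after seeing the data, and ranged from 0 to 4 when an array was left out, with 0 without female replicate 2. The 75th percentile shift moved the median female difference of all probes tested from -0.21 to 0.45, and under it Fabp7 changed sign in females.

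Of all probes tested, limma called 0 in males, 1 in the authors' table and 0 to 1 with an array left out. In females it called 0, 3 with the 75th percentile, 3 with normexp, and 0 to 96 with an array left out, the most without female replicate 1. Over both sexes the range was 0 to 13, and for female minus male 0 to 2. No member probe was called in any of these fits. Leaving out an array leaves 1 sample in its group, which is assumed to vary like the others.

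The median member difference kept its sign in each setting for females (-1.54 to -0.05 with an array left out) and ran from -0.30 to 0.50 in males. Without female replicate 2, and within slide 1, the female difference of Gja1 was 0.14 in place of -2.62 (-5.17 without replicate 1), and those of Fabp7, Slc1a3, Hopx and S100b also changed sign. No paired analysis was possible because the 2 mg arrays carry no replicate number. Slide as a random block could not be fitted with 6 arrays and 4 groups, and a 2 mg array could not be left out, as it is the only control of its sex. Scan day as a term called 0 probes. Signal near background limits female replicate 2, where 6 of 14 member probes were measured.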
